A study of Mus musculus with 2 samples.

Results

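The HOX cluster genes are the 39 protein-coding genes of the mouse Hoxa, Hoxb, Hoxc and Hoxd clusters, taken from the 55536 genes of the deposited table by gene type and symbol in GENCODE release M21. They were compared between 2 mammary tumor libraries of MMTV-PyVT mice, in which the mouse mammary tumor virus promoter drives an oncogene, the middle T antigen of polyoma virus, in mammary epithelial cells. Both libraries came from such mice. The control group received dimethyl sulfoxide (DMSO), the vehicle, and the other group the plant pigment cyanidin-3-glucoside (C3G). Treatment began at the stage of ductal hyperplasia, and tumors were taken at a set tumor burden. The labels used here give no dose, age or strain and do not say whether tumors or animals were pooled. With 1 library per group there is no replicate check, no test was made, and the treatment cannot be told apart from differences between individual tumors.

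HOX genes encode transcription factors with a homeodomain, a DNA-binding domain, and give cells their position along the body axis. They lie in rows on 4 chromosomes, and members of different clusters that hold the same place in the row, the paralogue groups 1 to 13, are related by descent. Low-numbered genes act towards the head and high-numbered genes towards the tail and the limb tips. In the adult, fibroblasts, epithelial cells and blood cells keep part of the pattern, and several HOX genes take part in mammary gland development. On mm10 the Hoxa cluster (11 genes) spans chr6:52155590-52260880, Hoxb (10 genes) chr11:96194316-96368256, Hoxc (9 genes) chr15:102921103-103036852 and Hoxd (9 genes) chr2:74668310-74765142.

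HOX transcripts were scarce in both tumors. Levels are in TPM, transcripts per 1000000, which corrects for gene length, so that genes can be compared with each other. Reads behind each value were recovered from the TPM steps, with a total of 12192275 under DMSO against 16081110 under C3G. The 39 genes together held 399 reads and 34.5 TPM in the DMSO tumor and 328 reads and 22.8 TPM in the C3G tumor. The sum was 1.52-fold lower in the C3G tumor, with a 95% interval of 1.30 to 1.76. All intervals in the text cover counting error only. A count of 3 reads, the limit that a count of 0 allows, came to 0.280 TPM under DMSO against 0.221 TPM under C3G for a gene of the median HOX length. Of the 39 genes, 23 had a read in the DMSO library, 24 in the C3G library and 20 in both. In total 27 had a read, 10 of them at a higher TPM in the C3G tumor and 17 at a lower one. Among all 26681 genes with a read, 56.8% were at a higher TPM in the C3G tumor.

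**Figure D1:**
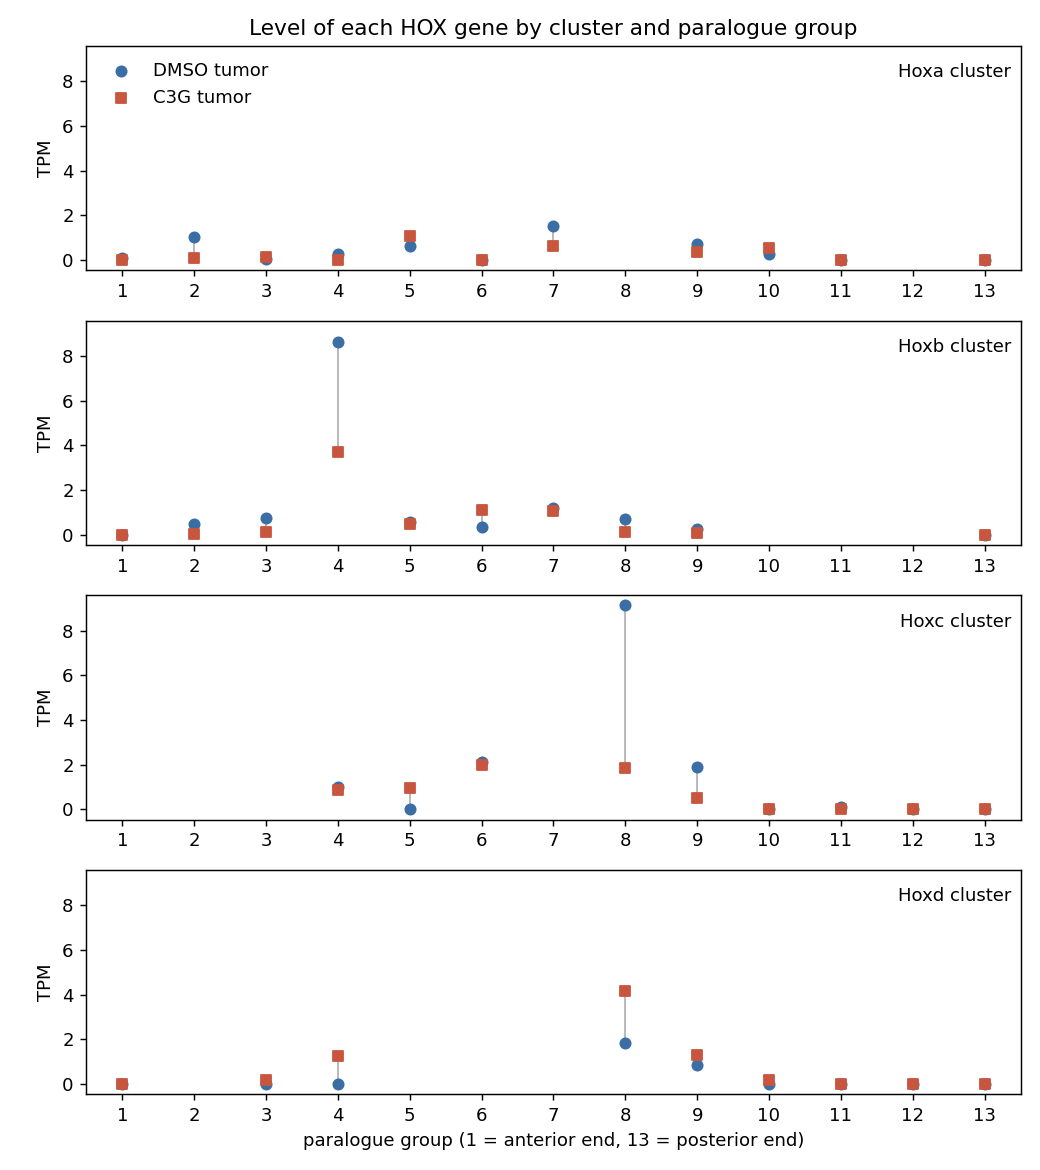
TPM of each HOX gene in the DMSO tumor (circles) and the C3G tumor (squares), 1 library each, with 1 panel per cluster and the paralogue group on the horizontal axis; grey lines join the values of a gene. Hoxb4 and Hoxc8 in the DMSO tumor stand above 8 TPM, all other values are below 5 TPM, and the Hoxd genes with reads are higher in the C3G tumor.

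The 12 genes with no read in either library were Hoxa6, Hoxa11, Hoxa13, Hoxb1, Hoxb13, Hoxc10, Hoxc12, Hoxc13, Hoxd1, Hoxd11, Hoxd12 and Hoxd13. Groups 11 to 13, which pattern the limb tips and the hind end, held 8 of these, and the remaining gene of those groups, Hoxc11, had 1 read in the DMSO library. For genes with no read the depth sets only the limit given above. A further 15 genes had reads but stayed below 1 TPM in both tumors, with at most 17 reads in a library. The other 12 reached 1 TPM in at least 1 tumor. The median of all 17468 genes with a mean of at least 1 TPM was 11.8 TPM in the DMSO tumor, above every HOX gene.

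Hoxc8 and Hoxb4 were the leading HOX genes of the DMSO tumor and were both lower in the C3G tumor. Hoxc8, a central gene that patterns the thoracic region (ENSMUSG00000001657, chr15:102990607-102994111), stood at 9.12 TPM (112 reads) with DMSO and 1.86 TPM (29 reads) with C3G, 4.89-fold lower (3.23 to 7.64). Hoxb4, a factor known from blood stem cells and the neck region (ENSMUSG00000038692, chr11:96318267-96321638), stood at 8.63 TPM (96 reads) and 3.69 TPM (52 reads), 2.34-fold lower (1.65 to 3.35). These were the only HOX genes that reached 5 TPM in a tumor, and both passed a call by size, which asked for 5 TPM in the higher tumor and a log2 ratio, with 1 TPM added to both values, of at least 1 in size. Over all 12780 genes with 5 TPM in the higher tumor, 4.3% were called lower and 3.1% higher. Together Hoxc8 and Hoxb4 made up 51.5% of HOX TPM in the DMSO tumor against 24.4% in the C3G tumor. Without them the HOX sum was 16.7 TPM under DMSO against 17.2 TPM under C3G, a ratio of 1.03 (0.845 to 1.25). Both genes were left out for their place in the DMSO tumor. With Hoxd8, the leading gene of the C3G tumor, left out as well, the sum was 14.9 TPM under DMSO against 13.03 TPM under C3G, a ratio of 0.875 (0.704 to 1.09).

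In the C3G tumor the first place was held by Hoxd8, the Hoxd paralogue of Hoxc8 (ENSMUSG00000027102, chr2:74704615-74707933). It stood at 1.85 TPM (22 reads) with DMSO and 4.18 TPM (63 reads) with C3G, 2.26-fold higher (1.37 to 3.86). Hoxd4, the Hoxd paralogue of Hoxb4 (ENSMUSG00000101174, chr2:74711929-74729160), had no read in the DMSO library and 20 reads (1.23 TPM) in the C3G library. The C3G level of Hoxd4 corresponds to 15.8 reads at the DMSO depth, 5.26 times the limit of 3 reads. The lower end of the counting interval of Hoxd4 was 3.90-fold higher. Of its exon bases, 52.3% are shared with the neighbours Hoxd3, Hoxd3os1 and Gm28230, and the kit named in the labels keeps no strand in its standard form, so its reads are uncertain in origin. Within both paralogue groups the Hoxd copy was thus higher and the Hoxb or Hoxc copy lower in the C3G tumor.

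Promoters of 3 of these genes, from RefSeq on GRCm38.p6, are shown because Hoxd8 and Hoxd4 were higher and Hoxb4 lower in the same library. Each runs from 250 bases before to 50 bases after the start, 5′ to 3′ on the plus strand, at chr2:74704365-74704664, chr2:74721728-74722027 and chr11:96318017-96318316. Capitals mark the CCAAT box, the TATA box TATAAA, the homeodomain core TAATTA and the joint PBX and HOX motif TGATNNAT, searched on both strands.
Hoxd8 promoter: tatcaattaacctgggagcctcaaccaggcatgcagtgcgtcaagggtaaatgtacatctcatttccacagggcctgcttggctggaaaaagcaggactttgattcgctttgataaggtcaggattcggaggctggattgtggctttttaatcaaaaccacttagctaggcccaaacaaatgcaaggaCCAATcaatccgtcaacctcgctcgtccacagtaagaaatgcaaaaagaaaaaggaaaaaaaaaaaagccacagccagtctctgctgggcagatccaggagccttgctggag
Hoxd4 promoter: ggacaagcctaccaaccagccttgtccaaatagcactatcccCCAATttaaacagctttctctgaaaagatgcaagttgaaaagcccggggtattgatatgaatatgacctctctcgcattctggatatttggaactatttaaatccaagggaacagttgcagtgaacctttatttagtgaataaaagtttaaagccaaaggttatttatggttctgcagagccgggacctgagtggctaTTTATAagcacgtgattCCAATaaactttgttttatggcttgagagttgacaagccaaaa
Hoxb4 promoter: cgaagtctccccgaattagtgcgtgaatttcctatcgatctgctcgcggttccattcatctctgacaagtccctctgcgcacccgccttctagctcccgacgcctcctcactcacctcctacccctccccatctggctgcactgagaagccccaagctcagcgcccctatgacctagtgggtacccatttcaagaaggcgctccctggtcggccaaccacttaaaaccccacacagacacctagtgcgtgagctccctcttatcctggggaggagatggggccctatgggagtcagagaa
CCAAT, bound by nuclear factor Y, was in the Hoxd8 and Hoxd4 windows, and TATAAA, on the other strand, in that of Hoxd4. The Hoxb4 window held none of the 4 motifs. CCAAT was found in 37.4% of 32851 promoters of this length and in 15 of the 24 listed for HOX genes (62.5%). TATAAA was found in 13.6% of all and in 4 of the 24. TAATTA was found in 5.29% of all and in 2 of the 24, and the joint PBX and HOX motif in 8.85% and in 4 of the 24. The RefSeq table matched 22 of the 39 genes, some with more than 1 start, and Hoxc8 was not among them. The start used for Hoxd4 lies inside the span that GENCODE gives the gene. No part of these motifs in the differences was tested.

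Many HOX genes rest on few reads, so folds past 2 were counted only among the 10 genes with at least 20 reads over both libraries. Of these, 4 were at least 2-fold lower in the C3G tumor (Hoxc8, Hoxb4, Hoxc9 and Hoxa7), 2 were at least 2-fold higher (Hoxd8 and Hoxd4) and 4 lay between. Over all 16309 genes with at least 20 reads, 10.3% passed 2-fold in either direction, 5.42% lower and 4.86% higher. Low genes pass more easily. Among the 4564 genes with 20 to 150 reads, a range that holds all 10 HOX genes, 25.5% passed, 13.8% lower and 11.7% higher. The counting interval left out a ratio of 1 for the same 6 of 10 HOX genes, against 31.2% of the genes in that range.

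**Figure D2:**
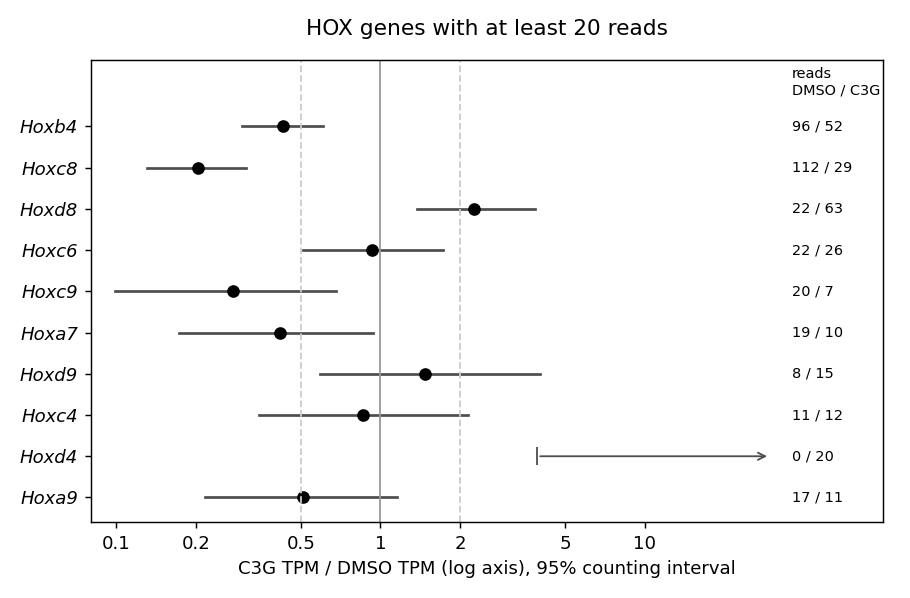
Ratio of C3G to DMSO TPM for the 10 HOX genes with at least 20 reads, on a log axis, with exact 95% counting intervals as bars and the reads of each library at the right; the solid line marks a ratio of 1 and the dashed lines 2-fold. Hoxd4 has no read with DMSO and is shown by the lower end of its interval, 3.90, and an arrow; the intervals of Hoxc6, Hoxd9, Hoxc4 and Hoxa9 hold 1.

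Among the remaining genes with at least 20 reads, Hoxc9, a posterior gene of the trunk, stood at 1.90 TPM (20 reads) with DMSO and 0.524 TPM (7 reads) with C3G, 3.62-fold lower (1.47 to 10.1). Hoxa7, a central gene, stood at 1.52 TPM (19 reads) and 0.633 TPM (10 reads), 2.41-fold lower (1.07 to 5.80), with 20.4% of its exon bases shared with the antisense gene Hoxaas3. Hoxc6, a central trunk gene, was at 2.11 TPM (22 reads) and 1.96 TPM (26 reads), a ratio of 0.932 (0.508 to 1.73). For Hoxc6, as for Hoxd9, Hoxc4 and Hoxa9, a difference within the interval was not detectable at this depth. Hoxd9 stood at 0.864 TPM (8 reads) and 1.28 TPM (15 reads), a ratio of 1.48 (0.589 to 4.03). Hoxc4 stood at 0.988 TPM (11 reads) and 0.850 TPM (12 reads), and Hoxa9, known as a regulator of blood progenitors, at 0.703 TPM (17 reads) and 0.359 TPM (11 reads). The C3G to DMSO ratio was 0.861 (0.348 to 2.15) for Hoxc4 and 0.511 (0.216 to 1.16) for Hoxa9.

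A further 4 genes reached 1 TPM on fewer than 20 reads. Hoxa2, the head gene that patterns the second pharyngeal arch, had 8 reads with DMSO (1.04 TPM) and 1 with C3G (0.103 TPM). Hoxb7 was level, at 8 reads (1.20 TPM) and 9 reads (1.06 TPM). Hoxb6 had 3 reads (0.352 TPM) and 12 reads (1.11 TPM), and Hoxa5, which takes part in lung and mammary development, 5 reads (0.614 TPM) and 11 reads (1.07 TPM). The intervals of Hoxb7, Hoxb6 and Hoxa5 all held 1, and that of Hoxa2 lay below 1 (0.0022 to 0.736). Hoxc5, just under 1 TPM, had no read with DMSO and 16 with C3G (0.943 TPM), 4.21 times the limit of 3 reads at the DMSO depth. Its counting interval began at 3.04-fold higher. Its GENCODE model starts within Hoxc10 and spans Hoxc9, Hoxc8 and Hoxc6, and 5.37% of its exon bases are shared with Hoxc10.

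The other genes below 1 TPM held few reads. In the Hoxb cluster Hoxb8 had 8 reads with DMSO and 2 with C3G, Hoxb5 had 7 in each library (0.580 and 0.457 TPM), and Hoxb9, which takes part in mammary gland development, had 3 and 1. Hoxb3 stood at 0.760 and 0.128 TPM and Hoxb2, a hindbrain gene, at 0.463 and 0.052 TPM. The intervals of Hoxb3 (0.0312 to 0.606), Hoxb2 (0.0025 to 0.877) and Hoxb8 (0.0204 to 0.988) lay below 1. Those of Hoxb5 (0.236 to 2.64) and Hoxb9 (0.0050 to 3.28) held 1. In the Hoxa cluster Hoxa10, a gene of the uterus and lower trunk, had 4 and 10 reads (0.282 and 0.557 TPM), Hoxa3 had 1 and 4, and Hoxa4 had 2 and 0. In the Hoxd cluster Hoxd3 and Hoxd10 had no read with DMSO and 4 and 2 reads with C3G. The exon bases of Hoxd3 are shared with other genes to 62.8%, among them Hoxd4 and Hoxd3os1.

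The clusters did not all go the same way, though the difference between them was not tested. All 5 Hoxd genes with reads were at a higher TPM in the C3G tumor, whereas 7 of 8 Hoxb genes, 5 of 6 Hoxc genes and 5 of 8 Hoxa genes with reads were at a lower one. Summed over its genes, the Hoxd cluster stood at 2.71 TPM (30 reads) with DMSO and 7.07 TPM (104 reads) with C3G, 2.60-fold higher (1.73 to 3.92). The cluster was 3.34-fold higher without Hoxd8 and 2.01-fold over the Hoxd genes that share no exon base, which leaves out Hoxd4. Its share of HOX TPM was 7.87% with DMSO and 31.0% with C3G. Hoxc stood at 14.2 TPM (166 reads) and 6.15 TPM (90 reads), a C3G to DMSO ratio of 0.432 (0.334 to 0.559). Without Hoxc8 that ratio was 0.838. Hoxb stood at 12.9 TPM (146 reads) and 6.71 TPM (87 reads), 1.93-fold lower (1.47 to 2.53), with a C3G to DMSO ratio of 0.699 without Hoxb4 in place of 0.518. Hoxa stood at 4.59 TPM (57 reads) and 2.84 TPM (47 reads), 1.62-fold lower (1.07 to 2.46). Over the Hoxa genes that share no exon base with another gene the ratio was 1.81, in the opposite direction.

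By position, the central genes of groups 4 to 8 carried 81.1% of HOX TPM with DMSO and 84.3% with C3G. Their sum was 27.95 TPM (315 reads) and 19.2 TPM (269 reads), 1.46-fold lower (1.24 to 1.72). Groups 8 and 4 were the fullest in both tumors. Group 8 stood at 11.7 TPM under DMSO against 6.18 TPM under C3G, and group 4 at 9.91 TPM and 5.77 TPM. In group 8 the leading copy passed from Hoxc8 to Hoxd8. The anterior genes of groups 1 to 3, which pattern the hindbrain and neck, stood at 2.40 TPM (31 reads) and 0.578 TPM (13 reads), 4.16-fold lower (2.06 to 8.37). Hoxa2, Hoxb3 (14 and 3 reads) and Hoxb2 (7 and 1 reads) made up nearly all of that sum with DMSO, and 52.9% of the exon bases of Hoxb3 and 27.3% of those of Hoxb2 are shared with the antisense gene Hoxb3os. The posterior genes of groups 9 to 13 stood at 4.13 TPM (53 reads) and 2.99 TPM (46 reads), a ratio of 0.724 (0.477 to 1.10), which was 1.10 without Hoxc9. Only group 5 was higher with an interval above 1, at 1.19 TPM and 2.47 TPM, 2.07-fold (1.05 to 4.05), with Hoxc5 and Hoxa5 as its higher members.

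**Figure D3:**
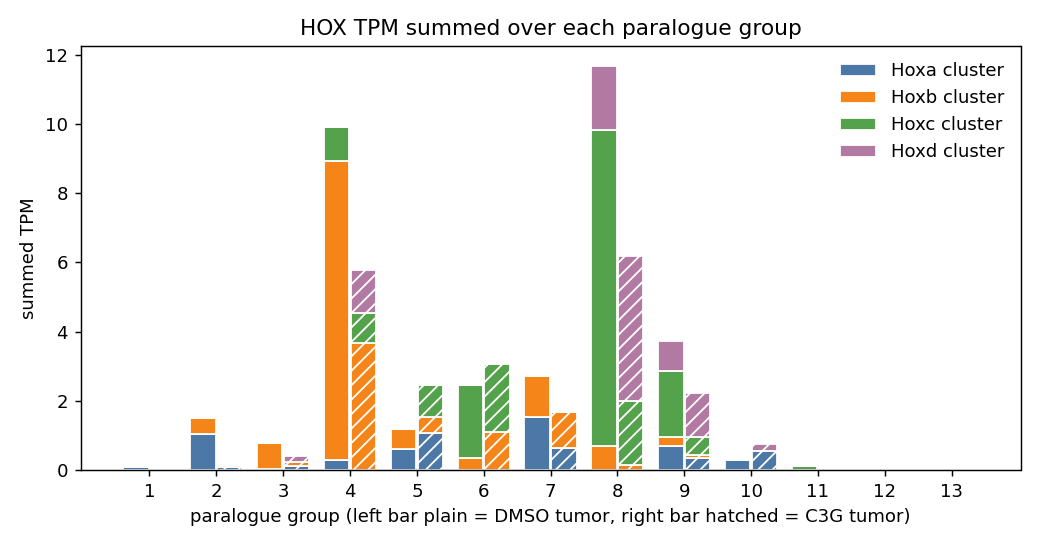
TPM summed over each paralogue group in the DMSO tumor (plain left bars) and the C3G tumor (hatched right bars), stacked by cluster, 1 library each. Groups 4 and 8 are the tallest in both tumors, and their Hoxd part is larger in the C3G tumor while the Hoxb part of group 4 and the Hoxc part of group 8 are smaller.

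The clusters also hold microRNA genes, of which miR-196 and miR-10 are known to act on HOX messages. Their mature forms are shown, from RefSeq on GRCm38.p6, because Hoxc8, the gene with the largest difference in reads, is a known target of miR-196. Capitals mark the seed, bases 2 to 8, which miR-196a shares with miR-196b and miR-10a with miR-10b.
mmu-miR-196a-5p: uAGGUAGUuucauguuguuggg
mmu-miR-196b-5p: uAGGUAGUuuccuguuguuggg
mmu-miR-10a-5p: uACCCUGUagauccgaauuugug
mmu-miR-10b-5p: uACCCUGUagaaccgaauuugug
Libraries of this kit hold long polyadenylated RNA and do not measure mature microRNAs. Of 7 microRNA genes within the clusters, only Mir10a had a read, 1 with C3G. The match to the miR-196 seed, ACTACCT, was present in the longest annotated 3′ UTR of 9 of 39 HOX genes (23.1%) and of 6.10% of 21045 coding genes. Among them were Hoxa4, Hoxa5, Hoxa7, Hoxa9, Hoxb1, Hoxb6, Hoxb7 and Hoxc8. Hoxa7 held 4 matches and Hoxc8 held 2. Both Hoxc8 sites (plus strand) and 1 of the Hoxa7 sites (minus strand) are shown with the match in capitals.
Hoxc8 site at chr15:102992975-102992997: acactcacaactctaACTACCTg
Hoxc8 site at chr15:102993732-102993754: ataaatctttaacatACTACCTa
Hoxa7 site at chr6:52215210-52215232: tactactagccctaaACTACCTa
Of the genes with a match, only Hoxc8, Hoxa7 and Hoxa9 had at least 20 reads. Hoxc8 and Hoxa7 were at least 2-fold lower in the C3G tumor, and Hoxa9 lay within 2-fold. On fewer reads, Hoxb6 (3 and 12 reads) and Hoxa5 (5 and 11 reads) were at a higher TPM in the C3G tumor, and Hoxb7 and Hoxa4 at a lower one. Hoxb4 and Hoxc9, also at least 2-fold lower, held no match. The match to the miR-10 seed, ACAGGGT, was in 4 of 39 HOX genes (10.3%, among them Hoxa3, Hoxb3 and Hoxd1) and in 12.5% of all coding genes. A match is a description of the sequence, and no part of these microRNAs in the differences was tested.

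Noncoding genes within the clusters were low too. Of 43, 13 had a read in either library, 43 reads in all with DMSO and 54 with C3G. Hoxd3os1, which lies antisense to parts of Hoxd3 and Hoxd4, had 5 reads with DMSO and 18 with C3G (0.402 and 1.14 TPM), the same direction as the Hoxd genes around it. Of the exon bases of Hoxd3os1, 12.1% are shared with Hoxd3 and Hoxd4, so reads there are uncertain in origin. Gm11536, an antisense gene inside the span of Hoxb3 (chr11:96336299-96342108, minus strand), had 13 reads with DMSO (5.60 TPM) and none with C3G. Its DMSO level was 5.49 times the limit of 3 reads at the C3G depth, and its counting interval began at 3.86-fold lower. Its neighbours Hoxb4, Hoxb3 and Hoxb3os (7 and 2 reads) were at lower levels in the C3G tumor as well. Of the exon bases of Hoxb3os, 76.2% are shared with Hoxb2 and Hoxb3, so the reads of Hoxb3os and Hoxb3 may overlap. Hoxb5os, which spans Hoxb5 and Hoxb6 on the other strand, had 0 and 6 reads. Hotair, a long noncoding RNA gene of the Hoxc cluster known for acting on the Hoxd cluster, had no read.

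Of the 24 coding genes that flank the clusters, 3 on each side of each cluster, 19 had a mean of at least 1 TPM and none was called by size. Their median log2 ratio was 0.14, with 14 above and 5 below 0, beside the 0.10 of all 17468 such genes. The largest difference was that of Atp5g2, a gene of the mitochondrial ATP synthase beside Hoxc, at 151 and 249 TPM, 1.65-fold higher (1.53 to 1.77), followed by Smug1. Smug1, the DNA repair gene next to Hoxc4, stood at 7.25 and 10.8 TPM, and Mtx2, the mitochondrial gene next to Hoxd1, at 42.3 and 42.0 TPM. The homeobox genes Evx1 and Evx2, which end the Hoxa and Hoxd rows, had no read. Only 8 of the 39 HOX genes passed the same filter, with a median log2 ratio of -0.36 and 6 of 8 below 0.

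HOX proteins bind DNA together with TALE homeodomain cofactors of the PBX, MEIS and PKNOX families, which were far more abundant than the HOX genes and at like levels in both tumors. Of 9 cofactor genes, 7 had a mean of at least 1 TPM, with a median log2 ratio of 0.14, or -0.06 with trends over length and GC content removed. Of these, 5 were above and 2 below 0, and none was called by size. Pbx2 stood at 49.2 and 45.7 TPM, and Meis3 at 14.8 and 16.5 TPM. Pknox1 had the largest ratio among those at 5 TPM or more, 6.95 and 9.87 TPM, 1.42-fold (1.20 to 1.69). Meis1, the partner of HOXA9 in blood progenitors, stood at 1.29 and 1.85 TPM.

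Trithorax proteins keep HOX genes on and Polycomb proteins keep them silent. Of 17 such regulators all were measured, with a median log2 ratio of 0.21 beside the 0.10 of all genes, 15 above and 2 below 0, and none was called by size. Suz12, a core subunit of the Polycomb complex that methylates histone H3, stood at 36.4 TPM under DMSO against 68.0 TPM under C3G, 1.87-fold higher (1.72 to 2.03). Bmi1 and Rnf2, subunits of the other Polycomb complex, stood at 27.0 and 44.2 TPM and at 20.5 and 27.9 TPM, and Kdm6a, which removes the Polycomb mark, at 15.4 and 25.8 TPM. Ezh2, the methyltransferase itself, stood at 24.6 and 28.6 TPM, and the Trithorax enzyme gene Kmt2a at 21.1 and 23.6 TPM. The 2 regulators below 0 were Pcgf2 (41.7 and 32.2 TPM) and Cbx8 (10.6 and 8.22 TPM).

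**Figure D4:**
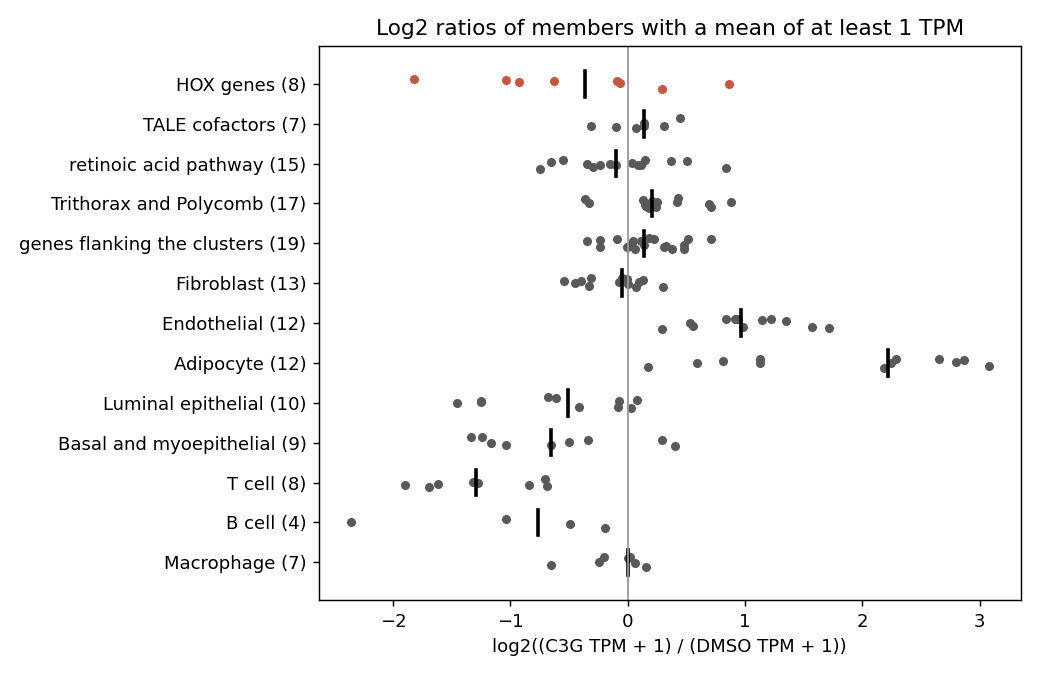
Log2 ratio of C3G to DMSO, with 1 TPM added to both values, for genes with a mean of at least 1 TPM in each list (number of genes in parentheses); each point is a gene and the black bar is the median. HOX genes run from -1.82 to 0.86, cofactors lie closer to 0, the highest regulator is Suz12 at 0.88, and adipocyte and T cell markers lie furthest out.

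The tumors also differed in cell type markers, and in bulk tissue fewer cells of a type and less RNA per cell cannot be told apart. All 12 adipocyte markers were higher in the C3G tumor, with a sum of 366 TPM under DMSO against 1518 TPM under C3G. All 12 endothelial markers were higher, at 59.8 and 132 TPM. Lower were all 8 T cell markers, at 59.9 and 18.0 TPM, 7 of 9 basal markers, at 1195 and 614 TPM, and 8 of 10 luminal markers, at 7842 and 5654 TPM. Of the basal list, the 4 called lower were the contractile genes Acta2 (712 and 318 TPM), Myh11, Cnn1 and Mylk. Krt14, Krt17 and Oxtr were lower without a call. Only Krt5 (36.2 and 48.4 TPM) and Trp63 (11.9 and 14.9 TPM) were higher. All 13 fibroblast markers were present, at 1724 and 1445 TPM with a median log2 ratio of -0.05, and 7 macrophage markers stood at 951 and 958 TPM. None of these markers was at 0 in a library. The 4 measured of 7 B cell markers were lower, at 123 and 59.3 TPM over the list, and the defining marker Ms4a1 had no read under DMSO. Mast cell markers summed to 113 and 124 TPM, most of it Kit (106 and 103 TPM), with 3 above and 2 below 0. The proteases Mcpt4 (1.46 and 7.39 TPM, 7 and 45 reads) and Tpsb2 (1.30 and 6.62 TPM, 9 and 58 reads) were called higher by size. Cma1 stood at 2.54 and 5.34 TPM, while Cpa3, also a mast cell protease, was lower, as was Kit. Schwann cell markers summed to 435 and 440 TPM (3 of 4 higher), and skeletal muscle markers to 3.60 and 2.49 TPM, with Ckm at 0 in both. Epithelial markers were high in both tumors. The part of these cell types in the HOX differences was not tested.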

How the data were processed

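Per the labels' protocols, tumor RNA was purified on RNeasy Plus columns and made into libraries with the TruSeq RNA kit, version 2. In its standard form this kit takes polyadenylated RNA and keeps no strand; the labels do not state either point. Per the submitters' processing notes, Trimmomatic 0.38, featureCounts 2.0.0 and build mm10 were used. The aligner and the handling of reads matching more than 1 gene are not given in the sources used here. The deposited values are TPM, which the authors scaled to 1000000 per library.

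Identifiers were matched to GENCODE M21 (55536 of 55536). Multiplied by the length of the merged exons, TPM fell on whole steps for 100% of values (tolerance 0.01 of a step), and 1 step was taken as 1 read or read pair. Ratios of TPM have exact conditional 95% intervals from these reads; those of sums use a normal approximation on the log scale. Both cover counting error only. Python 3.11.15, pandas 2.3.3 and scipy 1.17.1 were used, and the calls and intervals were tested on simulated data. Every HOX gene with at least 1 TPM in a tumor is named with its values, and in other lists up to 4 members with the largest ratio at 5 TPM or more. A few genes that meet this rule or belong to these lists are not reported here by name. Other genes named beside these were chosen after their values were seen. The members, lists and rules were chosen with earlier results of these data known. The background of 20 to 150 reads and the repeat over genes that share no exon base were added after the values were seen.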

Additional observations from a re-analysis of the deposited data

How the results depend on the processing

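Each group has 1 library, so no library could be left out. No paired analysis was possible because each group has 1 library. Centring on genes with a mean of at least 10 TPM lowered all log2 ratios by 0.12. It kept the 2 calls by size, and the count of HOX genes past 2-fold was 7 in place of 6. With a pseudocount of 5, 1 HOX gene was called lower. With a stricter filter for calls, 20 TPM in the higher tumor, 0 were called, as no HOX gene reaches that level. With no filter on low values 1 was called higher, Hoxd4. The count past 2-fold was 10 with at least 10 reads, 3 with at least 50 and 4 over genes that share no exon base. The median log2 ratio of the measured HOX cofactor genes was -0.061 with the length and GC trend removed, in place of 0.14. Among the sums, the C3G to DMSO ratio was 0.699 for Hoxb without Hoxb4, 0.838 for Hoxc without Hoxc8, 1.10 for posterior genes without Hoxc9 and 1.81 for Hoxa over genes that share no exon base. The anterior genes leave no DMSO read under that last setting, so it has no value. All other sums stayed within their counting intervals. The HOX median ran from -1.43, under a separate stricter filter for medians that left 2 HOX genes, to 0 with no filter. None of the 12 HOX genes that reach 1 TPM changed direction under a pseudocount, centring or rescaling. HOX genes under 1 TPM were not run under these settings one by one. Below 20 reads, folds rest on few counts.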

Other observations

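Pdx1, a pancreas and gut transcription factor, is the ParaHox gene related to the HOX genes that stood out. It had 5 reads (0.534 TPM) in the DMSO tumor and 75 reads (6.32 TPM) in the C3G tumor, 11.8-fold higher (4.85 to 37.5), and was called higher by size, as were 3.1% of genes. The other ParaHox and HOX-linked homeobox genes Gsx1, Gsx2, Cdx1, Cdx2, Cdx4, Evx1 and Evx2 had no read, and Mnx1 had 1 read with C3G.

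Retinoic acid is the classical inducer of HOX genes. Of 18 genes of its pathway 15 were measured, 7 above and 8 below 0, with a median log2 ratio of -0.10 and none called by size. The receptor gene Rara stood at 33.8 TPM under DMSO against 19.7 TPM under C3G, 1.72-fold lower (1.52 to 1.94), and Aldh1a3, which makes retinoic acid, at 24.2 and 16.2 TPM. The receptor partner Rxrb stood at 26.8 and 34.9 TPM. The part of this pathway in the HOX differences was not tested.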
